A study of Mus musculus with 24 samples.

Results

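Glul, Oat, Slc1a2, Lgr5, Axin2, Tbx3, Lect2, Cyp1a2, Rgn and Rnf43 are 10 genes that hepatocytes around the central vein use more than other hepatocytes. They were measured among 35275 genes in livers of fasted mice that lacked Tsc1, Cpt2, both, Ppara, or both Cpt2 and Ppara. The genes were chosen by name, with earlier results of these same counts in view, and which of the measured values chose them is not recorded. Their values are therefore given as a description, without a test, and support nothing about how the list as a whole responded. All 10 passed the filter on low counts in every fit.

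The liver lobule is divided into zones along the blood flow from the portal vein to the central vein. Endothelial cells of the central vein secrete Wnt ligands and R-spondin, which hold β-catenin in the nucleus of the nearest hepatocytes and switch on a pericentral program. That program includes glutamine synthesis from ammonia, uptake of glutamate, and much of the oxidation of drugs, whereas periportal hepatocytes carry out the urea cycle and gluconeogenesis.

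RNA-seq was performed on whole liver from mice 8 to 10 weeks of age, after 24 h of fasting. The genotypes were control, Tsc1L-/-, Cpt2L-/-, Tsc1Cpt2 L-/- (DKO), Ppara KO and Cpt2L-/- Ppara KO, with 4 libraries each and 24 in all. Tsc1 restrains the growth kinase complex mTorc1, Cpt2 is required to bring long-chain fatty acids into mitochondrial oxidation, and Ppara is the lipid-activated nuclear receptor of the fasting response. The study asked whether loss of Tsc1 could suppress the fasting response of livers without Cpt2. The deletions of Tsc1 and Cpt2 were made with floxed alleles and Albumin-Cre, so they act in hepatocytes and not in the endothelial cells that make Wnt. According to the study's methods, control mice were littermates that carried the same floxed alleles, and the labels call them wild type. The Ppara KO alleles are not described in the methods, and whether those mice share litters with the other groups is not stated. Which libraries share a litter or a day is not given, so errors and p-values measure only the spread between these samples.

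Total counts ranged from 14470968 to 20371204 per library. Ppara was at 256 ± 29.5 CPM (read counts relative to the library total, scaled between libraries by TMM) in control livers (SD, n = 4 here and for every group below), at 27.4 ± 16.8 CPM in Ppara KO livers and at 51.4 ± 28.3 CPM in Cpt2L-/- Ppara KO livers. Tsc1 was at 38.1 ± 1.39 CPM in control, 24.4 ± 4.49 CPM in Tsc1L-/- and 16.6 ± 1.22 CPM in DKO livers. Cpt2 stood at 97.6 ± 6.84 CPM in control livers and at 92.3 ± 10.1 CPM in Cpt2L-/- livers, so its whole-gene count did not check the Cpt2 labels. The 10 defining hepatocyte markers were present in every library, and their summed level ran from 71940 to 87990 CPM in control, 38070 to 65040 CPM in Cpt2L-/- and 32930 to 38870 CPM in DKO livers.

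The first replicates of both groups without Ppara stood apart. Replicate 1 of Ppara KO had a median rank correlation of 0.957 with its own group, within the 0.941 to 0.957 of the other 3, but was the one library closer to another group, at 0.964 with the Cpt2L-/- Ppara KO libraries. It held 96.1 CPM of Cpt2 against 37.96 to 50.9 CPM in the other 3. Replicate 1 of Cpt2L-/- Ppara KO reached only 0.924 with its group, where the other 3 libraries lay at 0.967 or above. In that library Cpt2 was at 125.5 CPM, against 31.7 to 39.1 CPM in the other 3, and Ppara was at 91.9 CPM, against 26.2 to 46.2 CPM. Fold changes of the 10 genes without overlap in a comparison with these groups are given with and without the first replicate.

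Sequence upstream of the start site, from RefSeq, build GRCm38.p6, was used for 7 of the 10 genes, with 8 start sites in all. The letters CTTTGA, the core of the site bound by the TCF/LEF partners of β-catenin, were searched on both strands of the 250 bases before each start. They occurred at 3 of the 7 genes, namely Slc1a2, Lect2 and Cyp1a2, and in 13.8% of all 32851 promoters of the same length. The shorter letters CTTTG occurred at the same 3 genes and in 48.6% of all promoters. The direct repeat bound by Ppara with its partner receptor, which is AGGTCA given 2 times with 1 base between, occurred at none of the 7 and in 0.0335% of all promoters. A repeat this rare would hardly be found at any 7 genes, so its absence says nothing about Ppara binding. The window of Glul is shown whole because Glul is the reference gene of this zone and had no match, and that of Lect2 because its match lies closest to a start site. Both are written 5′ to 3′ in the direction of the gene, and capitals mark CTTTGA or its reverse complement TCAAAG.
Glul, chr1:153899679-153899928, plus strand: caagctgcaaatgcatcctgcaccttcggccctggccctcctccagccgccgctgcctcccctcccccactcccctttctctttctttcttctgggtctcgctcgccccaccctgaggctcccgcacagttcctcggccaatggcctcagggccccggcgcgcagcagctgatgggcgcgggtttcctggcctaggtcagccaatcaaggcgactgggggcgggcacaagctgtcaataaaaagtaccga
Lect2, chr13:56548539-56548788, minus strand: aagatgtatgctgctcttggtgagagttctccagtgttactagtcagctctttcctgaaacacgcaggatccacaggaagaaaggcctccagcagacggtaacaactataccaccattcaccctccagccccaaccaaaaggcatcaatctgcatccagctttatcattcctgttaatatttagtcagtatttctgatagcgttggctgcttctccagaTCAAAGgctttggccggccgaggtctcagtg

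The other matches are shown with 10 bases on either side, where the window allowed it. Slc1a2 had a pair of them, 206 and 77 bases before a RefSeq start that lies inside the gene, downstream of its first annotated start. Cyp1a2 had 1, at 243 bases before the start. A match is a run of letters and was not tested as a binding site.
Slc1a2 at 206 bases, chr2:102706222-102706247, plus strand: aagagggacaTCAAAGgccccaaatg
Slc1a2 at 77 bases, chr2:102706351-102706376, plus strand: catgtgacttCTTTGAcatcaaaaca
Cyp1a2 at 243 bases, chr9:57683883-57683905, minus strand: tattcttTCAAAGacatatacct

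To compare the genes with one another, FPKM values, which divide by gene length, were used. In control livers Oat was highest at 667 ± 77.0 FPKM, followed by Glul at 485.5 ± 82.0 FPKM and Rgn at 236 ± 85.5 FPKM. Cyp1a2 was at 129.6 ± 42.9 FPKM, Lect2 at 88.3 ± 32.0 FPKM and Slc1a2 at 23.3 ± 3.48 FPKM. The Wnt receptor, feedback and transcription factor genes were far lower, with Rnf43 at 6.78 ± 3.24, Tbx3 at 5.76 ± 2.72, Axin2 at 2.22 ± 1.04 and Lgr5 at 1.598 ± 0.666 FPKM. Counts behind single values ranged from 5 reads of Lgr5 in a DKO library to 33411 reads of Oat in a Cpt2L-/- Ppara KO library. All levels below are CPM, which serve to compare a gene between livers and not one gene with another.

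Glutamine and ornithine metabolism came first. Glul (ENSMUSG00000026473, GRCm38 chr1:153899944-153909723), glutamine synthetase, makes glutamine from glutamate and ammonia in the last hepatocytes before the central vein. In control livers it was at 1074, 1789, 1341 and 1460 CPM in replicates 1 to 4. In Cpt2L-/- livers it was at 321, 272, 331 and 243 CPM. Every Cpt2L-/- library was thus below every control library, with a log2 fold change of -2.30 ± 0.203 (SE, edgeR), or 4.94-fold lower. In DKO livers Glul was at 954, 848, 717 and 968 CPM. These 4 libraries lay above all Cpt2L-/- libraries, 3.02-fold higher, and below all control libraries, 1.63-fold lower. In Tsc1L-/- livers it was at 708, 972, 1268 and 1268 CPM, which overlapped with both control and DKO livers. In whole tissue, fewer cells that express a gene and less RNA per cell cannot be told apart, here or for any gene below.

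Without Ppara, Glul was more scattered relative to its mean. In Ppara KO livers it was at 1106, 920, 511 and 541 CPM, so that 3 libraries lay below all control libraries and replicate 1 did not. Cpt2L-/- Ppara KO livers held 294.5, 921, 807 and 460.8 CPM, and the lowest of these, replicate 1, lay within the range of the Cpt2L-/- group. The log2 fold change of Cpt2L-/- Ppara KO against Cpt2L-/- livers was 1.08 ± 0.334 with all libraries and 1.32 ± 0.231 without that replicate, when the groups no longer overlapped. Ordered by mean, Glul went from control through Tsc1L-/-, DKO, Ppara KO and Cpt2L-/- Ppara KO to Cpt2L-/- livers, and every pair of neighbours in this order overlapped.

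Slc1a2 (ENSMUSG00000005089, chr2:102658659-102790784), the glutamate transporter that brings the substrate of glutamine synthetase into the same hepatocytes, followed Glul from group to group. It was at 242, 299, 313 and 266 CPM in control livers. It was at 28.8, 26.5, 33.2 and 42.5 CPM in Cpt2L-/- livers. The difference of 8.72-fold, or -3.12 ± 0.175 on the log2 scale, was larger than that of any of the other 9 genes between these groups. In DKO livers Slc1a2 was at 230, 172, 194.5 and 197 CPM. All 4 values were above the Cpt2L-/- range, by 6.14-fold, and just below the control range, by 1.42-fold. Tsc1L-/- livers held 215, 184, 279 and 292 CPM and overlapped with control livers.

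In Ppara KO livers Slc1a2 was at 265, 119, 98.6 and 165 CPM, with replicate 1 inside the control range and the other 3 below it. The 4 Cpt2L-/- Ppara KO livers had 50.2, 154, 135 and 134 CPM. Even replicate 1, the lowest, was above the 4 Cpt2L-/- libraries, and the log2 fold change between these groups was 1.85 ± 0.317, or 2.11 ± 0.170 without replicate 1. Cpt2L-/- was the lowest of the 6 groups and the only one that did not overlap with its neighbour in the order of means.

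**Figure D1:**
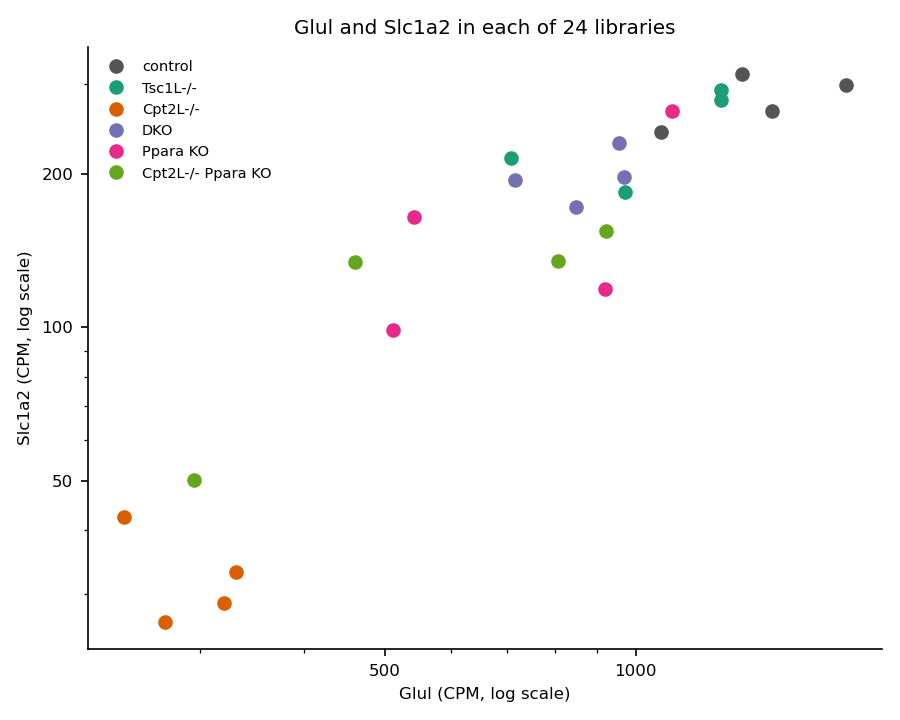
Level of Glul (x axis) and of Slc1a2 (y axis) in each of the 24 libraries, in CPM on log scales, coloured by genotype. The 4 Cpt2L-/- livers sit apart at the lower left, next to replicate 1 of Cpt2L-/- Ppara KO (294.5 CPM of Glul and 50.2 CPM of Slc1a2), and the control livers sit at the upper right.

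The pairing of these genes was close in the plot of Glul against Slc1a2. Over the 24 libraries the Pearson correlation of their log2 CPM was 0.92, and Slc1a2 was the gene most like Glul, and Glul the gene most like Slc1a2, among 12235 genes searched. With the group means removed, so that only differences between replicates remained, the correlation was 0.668. These values describe points that share libraries and genotypes. The next most alike genes were Adra1b (r = 0.797) and Acat3 (r = 0.792) for Glul, and Sdr9c7 (r = 0.854) and Scly (r = 0.849) for Slc1a2.

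Oat (ENSMUSG00000030934, chr7:132557475-132576398), ornithine aminotransferase, which turns ornithine into a precursor of glutamate, had a different order of groups. In control livers it was at 1257, 1747, 1398 and 1595 CPM. In Tsc1L-/- livers it was at 440, 338, 352 and 470 CPM. Oat was thus 3.76-fold lower without Tsc1 alone, with no overlap, whereas Glul and Slc1a2 overlapped with control livers there. Cpt2L-/- livers held 303, 691, 268 and 518 CPM, again all below the control range, at -1.78 ± 0.291 on the log2 scale. DKO livers held 376, 149, 255 and 220 CPM, the lowest mean of the 6 groups at 16.7% of control. They overlapped with both single deletions, so that Oat did not show the higher level in DKO than in Cpt2L-/- livers that Glul and Slc1a2 showed.

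Cpt2L-/- Ppara KO livers had 1055, 1126, 1997 and 1533 CPM of Oat. These overlapped with the control livers, with replicates 1 and 2 below the control range and replicate 3 above it. They were 3.20-fold above Cpt2L-/- livers with no overlap, a log2 fold change of 1.68 ± 0.347, or 1.81 ± 0.318 without replicate 1. Ppara KO livers were spread from 1386 through 959.5 and 761 to 309.5 CPM and overlapped with each of the other 5 groups. The gene whose pattern was most like that of Oat was Lhpp (r = 0.897), a phosphatase gene that was also on the list of other pericentral genes described below.

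The Wnt receptor and feedback genes came next. Lgr5 (ENSMUSG00000020140, chr10:115450311-115587780) encodes a receptor for R-spondin that strengthens the Wnt signal. It was at 5.41, 6.42, 7.45 and 12.3 CPM in control livers. Tsc1L-/- livers held 2.66, 1.29, 3.41 and 1.93 CPM. Cpt2L-/- livers held 0.801, 1.08, 1.77 and 2.10 CPM. Both deletions therefore went with a level below the whole control range, by 3.38-fold and 5.57-fold. DKO livers were lowest, at 0.799, 1.26, 0.326 and 0.267 CPM, which is 11.7-fold below control livers and 3.46-fold below Tsc1L-/- livers, with no overlap in either comparison. They overlapped with Cpt2L-/- livers. With 5 to 24 reads per library in DKO livers, the precision of these values is limited by counting.

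Ppara KO livers held 4.93, 1.36, 0.687 and 4.33 CPM of Lgr5, all below the control range, with a log2 fold change of -1.47 ± 0.529, or -1.88 ± 0.567 without replicate 1. Cpt2L-/- Ppara KO livers held 2.32, 2.57, 2.75 and 6.06 CPM, all above the Cpt2L-/- range by a mean of 2.40-fold, a log2 fold change of 1.26 ± 0.412, or 1.42 ± 0.400 without replicate 1. The margin was narrow, since the highest Cpt2L-/- library was at 2.10 CPM.

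Axin2, the scaffold protein of the complex that destroys β-catenin and a Wnt target in most tissues, did not follow Lgr5. Axin2 (ENSMUSG00000000142, chr11:108920349-108950783) ranged from 5.74 to 14.5 CPM in control livers, with a median of 9.14 CPM, and from 13.6 to 19.1 CPM in Cpt2L-/- livers, with a median of 16.4 CPM. Its mean was highest in Cpt2L-/- livers, 1.67-fold above control, with overlap of a single control library at 14.5 CPM. In DKO livers it ranged from 6.06 to 16.03 CPM and in Tsc1L-/- livers from 3.12 to 8.71 CPM, and both overlapped with control. Its range in Cpt2L-/- Ppara KO livers was 3.84 to 11.9 CPM, 1.98-fold below Cpt2L-/- livers with no overlap, a log2 fold change of -0.98 ± 0.296, or -0.75 ± 0.197 without replicate 1. In Ppara KO livers it ranged from 6.48 to 19.6 CPM.

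Tbx3 (ENSMUSG00000018604, chr5:119670669-119684724), a transcription factor of the pericentral program, varied more between replicates than between most groups. It ranged from 15.4 to 42.3 CPM in control, 7.26 to 39.2 CPM in Tsc1L-/-, 20.3 to 47.2 CPM in Cpt2L-/-, 12.6 to 35.9 CPM in DKO and 14.6 to 32.9 CPM in Ppara KO livers. All of these overlapped with control livers. Its range in Cpt2L-/- Ppara KO livers ran from 4.996 to 19.2 CPM, with no overlap with the Cpt2L-/- range and a log2 fold change of -1.03 ± 0.391, or -0.75 ± 0.264 without replicate 1.

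Rnf43 (ENSMUSG00000034177, chr11:87662722-87735539) encodes a ubiquitin ligase that removes Wnt receptors from the cell surface. Its mean was highest in control livers, at 29.9 ± 13.4 CPM, and lowest in DKO livers, at 16.6 ± 6.00 CPM. The groups overlapped in all 8 comparisons of genotypes, the only gene of the 10 for which this held. Between replicates, Axin2, Tbx3 and Rnf43 varied together, with correlations after removal of group means of 0.789 for Axin2 and Tbx3, 0.723 for Tbx3 and Rnf43 and 0.567 for Axin2 and Rnf43. The gene most like Tbx3 over the 24 libraries was Hic1 (r = 0.81), that most like Rnf43 was Prox1 (r = 0.785) and that most like Axin2 was Pex6 (r = 0.782). Irs1, an adaptor of the insulin receptor, was the third most alike gene for both Tbx3 (r = 0.759) and Rnf43 (r = 0.76).

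Of the secreted and metabolic genes, Lect2 (ENSMUSG00000021539, chr13:56542460-56548538) encodes a circulating protein made by hepatocytes and is a known β-catenin target. It was at 56.2, 62.5, 105 and 93.2 CPM in control livers. It was at 12.9, 23.1, 12.6 and 21.1 CPM in Cpt2L-/- livers and at 31.8, 25.3, 19.8 and 15.9 CPM in DKO livers. Both groups lay wholly below control, by 4.64-fold and 3.44-fold, and overlapped with each other. In Tsc1L-/- livers Lect2 was at 17.4, 17.0, 64.6 and 37.6 CPM, where replicate 3 lay in the control range. Lect2 in Cpt2L-/- Ppara KO livers was at 61.7, 49.1, 42.3 and 76.1 CPM. These 4 livers were all above the Cpt2L-/- range, by 3.28-fold, a log2 fold change of 1.72 ± 0.260, or 1.69 ± 0.254 without replicate 1. Ppara KO livers ranged from 14.8 to 75.3 CPM.

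Cyp1a2 (ENSMUSG00000032310, chr9:57676937-57683655), a cytochrome P450 that oxidizes caffeine and aromatic amines and is controlled by the aryl hydrocarbon receptor, was the gene that was highest without Ppara. In control livers it was at 187, 238, 347 and 237 CPM. In Ppara KO livers it was at 803, 787, 562 and 486.5 CPM. This was 2.61-fold above control livers with no overlap, a log2 fold change of 1.38 ± 0.244, or 1.29 ± 0.253 without replicate 1. In Cpt2L-/- livers it was at 136, 115, 111 and 201 CPM, where the highest library entered the control range. In DKO livers it was at 106, 155, 148 and 133 CPM, just below the control range. For Cyp1a2, Cpt2L-/- Ppara KO livers had 179, 401, 391 and 662 CPM, where replicates 2 to 4 exceeded every Cpt2L-/- library and replicate 1 did not. Tsc1L-/- livers ranged from 126 to 575 CPM, the highest being replicate 3, and without that replicate the log2 fold change against control turned from 0.21 to -0.36.

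The gene most like Cyp1a2 was Cyp2c29 (r = 0.942), another pericentral cytochrome P450, and the next were Irf7 (r = 0.905) and Ifitm3 (r = 0.905), which belong to the interferon response.

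Rgn (ENSMUSG00000023070, chrX:20549787-20562089), regucalcin, a calcium-binding lactonase of hepatocytes, ranged from 280 to 524 CPM in control and from 98.9 to 245 CPM in Cpt2L-/- livers. The groups did not overlap, and Rgn was 2.72-fold lower without Cpt2. In DKO livers it ranged from 183 to 284 CPM, in Ppara KO livers from 134 to 306 CPM and in Tsc1L-/- livers from 189 to 822 CPM, and all 3 overlapped with control. The value of 822 CPM in Tsc1L-/- livers was that of replicate 3, the library that was also highest for Cyp1a2 and Lect2 in that group, and without it the log2 fold change against control turned from 0.06 to -0.55. In Cpt2L-/- Ppara KO livers Rgn ranged from 121 to 178 CPM and overlapped with Cpt2L-/- livers, so it was not among the genes that were higher there. The gene most like Rgn was Car3 (r = 0.874), a carbonic anhydrase of liver and muscle, and that most like Lgr5 was Bace2 (r = 0.82).

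**Figure D2:**
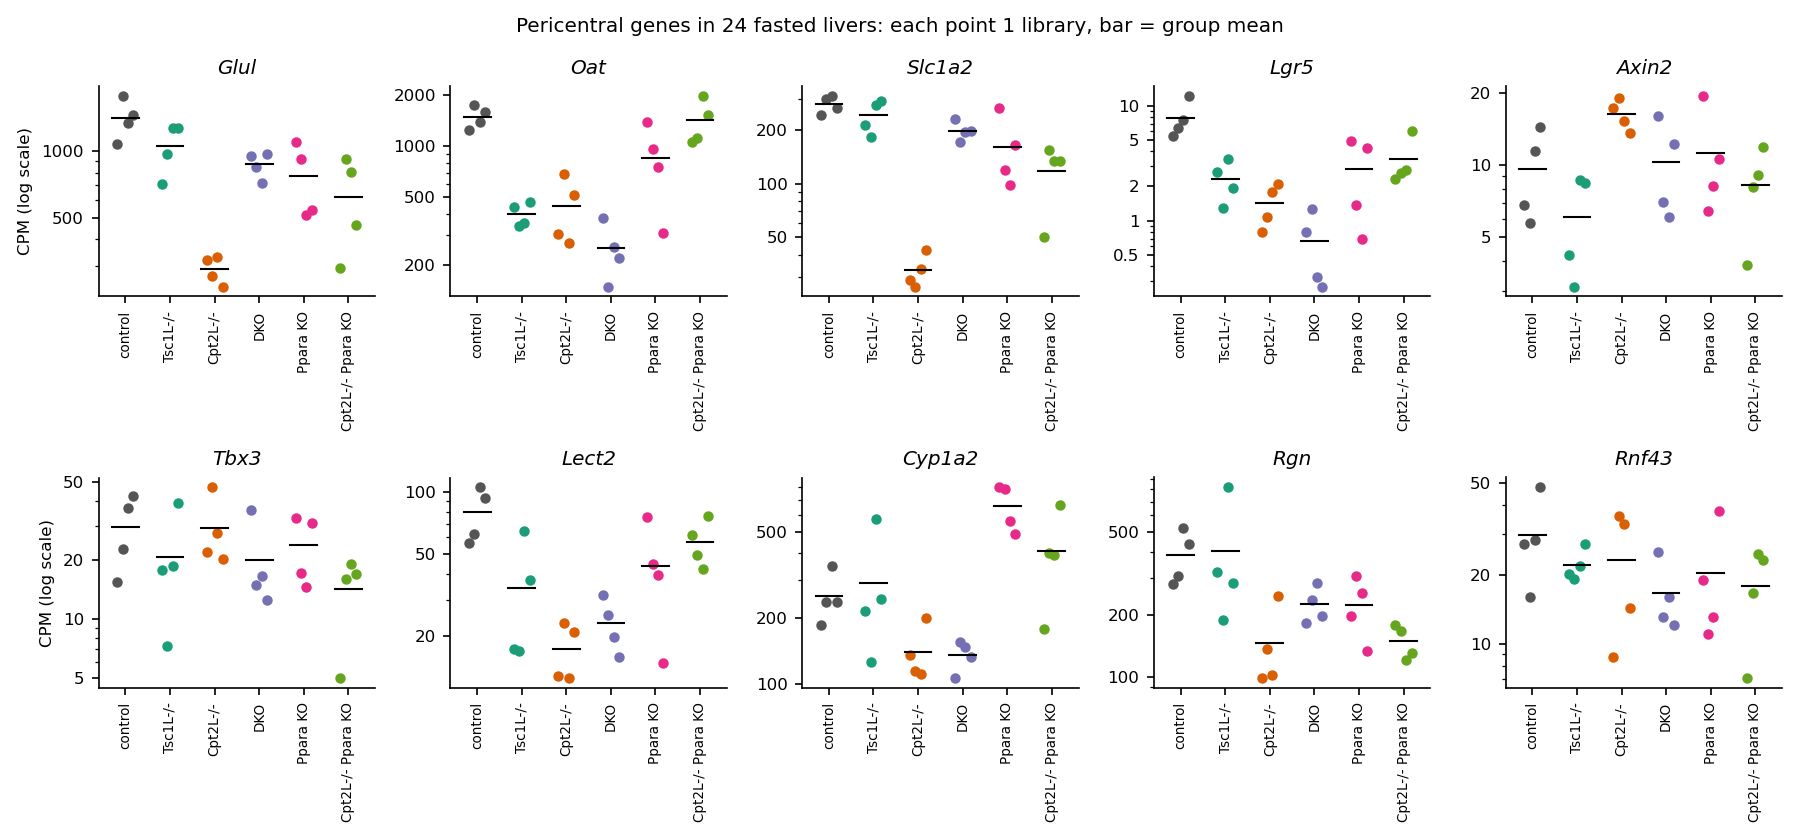
Level of each of the 10 genes in CPM (log scale) by genotype, where each point is 1 of 4 libraries and the bar is the group mean. Glul, Slc1a2 and Lect2 are lowest in Cpt2L-/- livers, Oat and Lgr5 are lowest in DKO livers, and Cyp1a2 is highest in Ppara KO livers.

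The genes were then read side by side in each comparison of genotypes. Comparisons that share a group, such as those with control livers, share its libraries and are not independent. For each comparison the share of all tested genes whose groups did not overlap is given as the background. In Cpt2L-/- against control livers, 6 of the 10 genes did not overlap, all lower, and 30.9% of 13641 tested genes did not overlap in either direction. The 6 were Slc1a2, Lgr5, Glul, Lect2, Oat and Rgn, with log2 fold changes from -3.12 to -1.44. In DKO against control livers 6 did not overlap, all lower, with a background of 37.4%. They were Glul, Oat, Slc1a2, Lgr5, Lect2 and Cyp1a2. In Tsc1L-/- against control livers Oat and Lgr5 did not overlap, both lower, with a background of 12.2%.

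In DKO against Cpt2L-/- livers, Glul and Slc1a2 did not overlap, both higher, and the background was 23%. The other 8 genes overlapped, with log2 fold changes from -1.07 to 0.65. In DKO against Tsc1L-/- livers Lgr5 did not overlap and was lower, with a background of 30.5%, and 9 of the 10 log2 fold changes were below 0. Shares of 2 or 1 in 10 are near or below these backgrounds and are not a result about the list.

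In Ppara KO against control livers Cyp1a2 was higher and Lgr5 lower without overlap, and 30.7% of 12955 genes did not overlap. Without replicate 1 of Ppara KO, Glul, Oat, Slc1a2 and Lect2 were also lower without overlap, which made 6 of 10, while the background became 39.9%. In Cpt2L-/- Ppara KO against Cpt2L-/- livers, Oat, Slc1a2, Lgr5 and Lect2 were higher and Axin2 and Tbx3 lower without overlap, with a background of 23%. Without replicate 1 of Cpt2L-/- Ppara KO, Glul and Cyp1a2 joined the higher genes, which made 8 of 10 against a background of 29.2%. In Cpt2L-/- Ppara KO against Ppara KO livers none of the 10 genes was without overlap, and the background was 19%. Oat did not overlap there once replicate 1 of Ppara KO was left out. The log2 fold changes of the 10 genes in this last comparison ranged from -0.76 to 0.72.

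**Figure D3:**
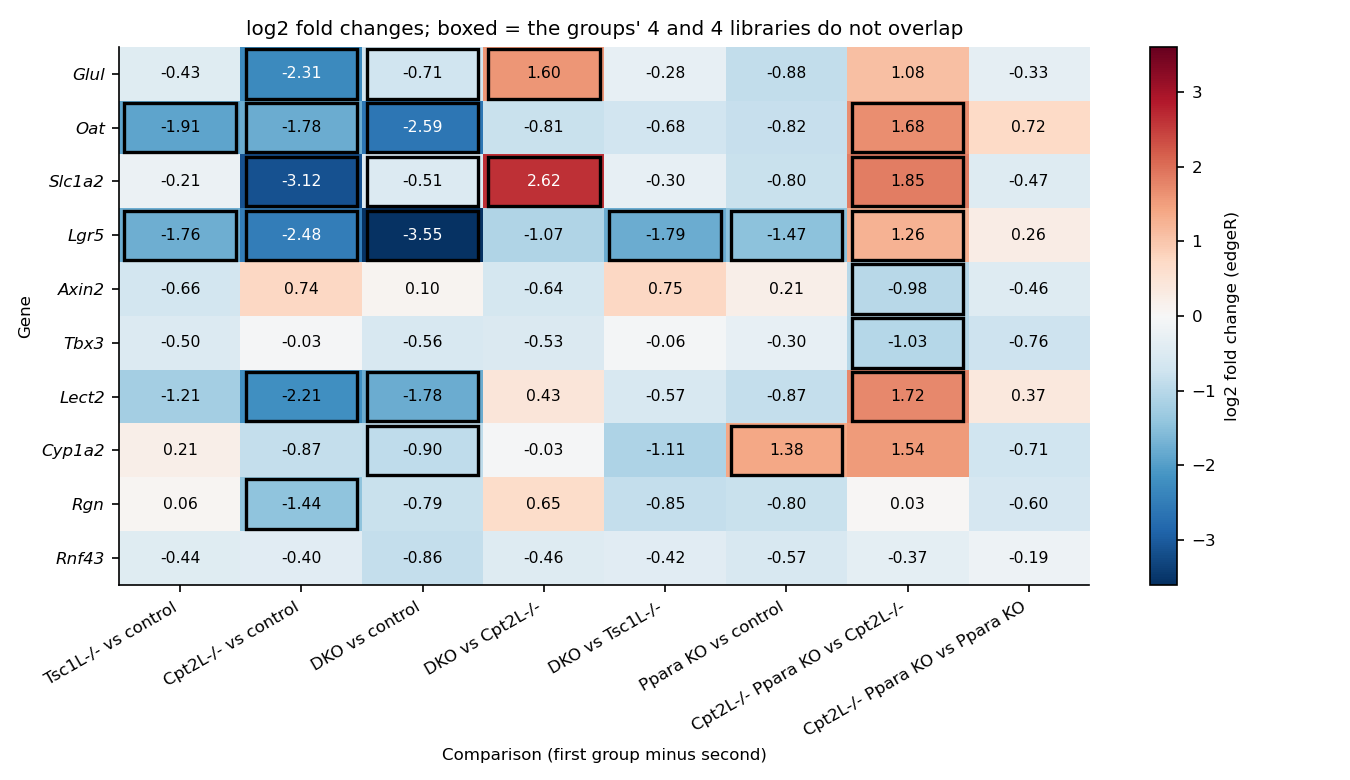
log2 fold change of each gene (rows) in each comparison of 2 genotypes (columns), first group minus second, fitted with edgeR; a box marks groups of 4 and 4 libraries that did not overlap. The columns of Cpt2L-/- and DKO against control hold 6 boxes each, all lower, and the column of Cpt2L-/- Ppara KO against Ppara KO holds none.

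The effect of 1 deletion was also compared between backgrounds, as the difference of 2 log2 fold changes. For Tsc1 loss in livers without Cpt2 minus Tsc1 loss in livers with Cpt2, the difference was 2.83 ± 0.233 (SE) for Slc1a2 and 2.02 ± 0.276 for Glul. It was 1.65 ± 0.572 for Lect2, 1.10 ± 0.402 for Oat, 0.69 ± 0.617 for Lgr5 and 0.59 ± 0.577 for Rgn. For Axin2, Tbx3, Rnf43 and Cyp1a2 it lay between -0.24 and 0.01, with SE of 0.510 to 0.699. Without replicate 3 of Tsc1L-/- it moved to 0.33 ± 0.340 for Cyp1a2 and to 1.21 ± 0.419 for Rgn. For Ppara loss in livers without Cpt2 minus Ppara loss in livers with Cpt2, the difference was 2.74 ± 0.709 for Lgr5, 2.66 ± 0.446 for Slc1a2, 2.58 ± 0.511 for Lect2, 2.503 ± 0.534 for Oat and 1.97 ± 0.460 for Glul. These 5 genes were lower in the mean in Ppara KO than in control livers and higher in Cpt2L-/- Ppara KO than in Cpt2L-/- livers. Axin2 and Tbx3 had the opposite sign, at -1.20 ± 0.506 and -0.73 ± 0.564. The difference was 0.84 ± 0.426 for Rgn, 0.21 ± 0.691 for Rnf43 and 0.16 ± 0.449 for Cyp1a2. Without replicate 1 of Ppara KO it was 3.16 ± 0.723 for Lgr5, 2.99 ± 0.415 for Slc1a2, 2.97 ± 0.481 for Lect2, 2.83 ± 0.526 for Oat, 2.19 ± 0.468 for Glul and -0.79 ± 0.466 for Axin2. Without replicate 1 of Cpt2L-/- Ppara KO it was 2.88 ± 0.733 for Lgr5, 2.91 ± 0.351 for Slc1a2, 2.55 ± 0.557 for Lect2, 2.62 ± 0.544 for Oat, 2.21 ± 0.393 for Glul and -0.97 ± 0.467 for Axin2.

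**Figure D4:**
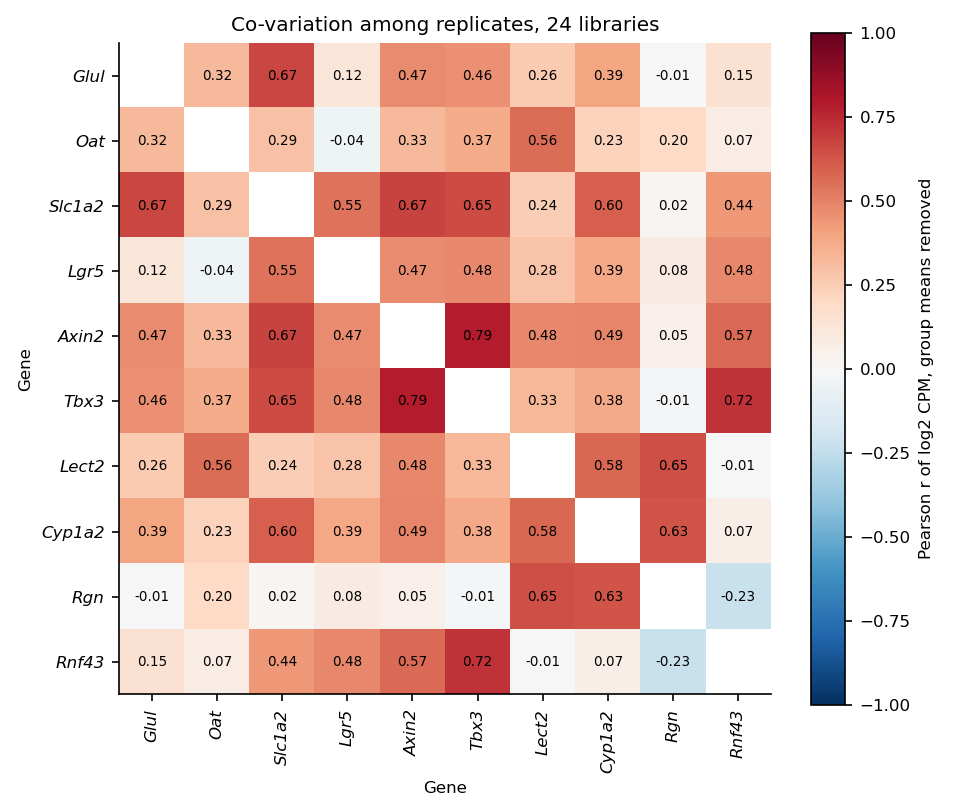
Pearson correlation of log2 CPM for each pair of the 10 genes over 24 libraries after the mean of each genotype was removed, so that it shows variation between replicates. Axin2 with Tbx3 (0.789) and Tbx3 with Rnf43 (0.723) are the highest, and Rgn with Rnf43 (-0.226) is the lowest.

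Within genotypes the 10 genes mostly varied in the same direction. The correlation after removal of group means was above 0 for 40 of the 45 pairs, with a median of 0.376. No such share was computed for other genes, so it does not set the 10 genes apart. Over all 24 libraries, with the genotypes left in, the median was 0.259. The matrix of these correlations held a group of Rgn, Lect2 and Cyp1a2 (0.577 to 0.648) besides that of Axin2, Tbx3 and Rnf43. The groups were not separate, since Slc1a2 correlated with Axin2 (0.672), Tbx3 (0.654) and Cyp1a2 (0.6). Replicate 3 of Tsc1L-/- was the highest library of its genotype for Rgn, Lect2 and Cyp1a2, and their correlations were not recomputed without it. The pairs share libraries and depth, and the values are a description.

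Other genes of the pathway were taken from lists written with earlier results of these data known, and these genes were tested with edgeR's quasi-likelihood test and Benjamini-Hochberg adjustment over all genes of each fit. In Cpt2L-/- against control livers, 17 of 24 other pericentral genes fell and 1 rose, where 14.9% of all tested genes fell and 16.2% rose. The median log2 fold change of the list was -1.31 and that of all genes was -0.02. Cyp7a1, the rate-limiting enzyme of bile acid synthesis, fell from 256 ± 152 to 10.3 ± 4.13 CPM (adjusted p = 0.000368). Cyp2c54, a cytochrome P450 of fatty acid and drug oxidation, fell from 219 ± 26.8 to 28.3 ± 8.56 CPM (adjusted p = 6.06e-05).

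In the same comparison 12 of 27 periportal genes fell and 3 rose, with a median of -0.68. The lower level was thus found on both zonal lists, and the summed level of 10 general hepatocyte markers, given above, was also lower than in any control library. What part this had in the values of the 10 genes was not tested. Of 12 endothelial markers 1 rose and none fell by edgeR, with 3 at an unadjusted p under 0.05 and 1 called in each direction by DESeq2, and their summed level was 377 to 734 CPM in Cpt2L-/- and 631 to 709 CPM in control livers. Of 8 stellate cell markers 3 fell and none rose by edgeR, with 4 at an unadjusted p under 0.05, 4 falling by DESeq2 and a median of -0.51, and their summed level was 228 to 307 CPM against 311 to 398 CPM in control livers. By edgeR 4 of 10 hepatocyte markers and 1 of 5 cholangiocyte markers fell, and 1 of 6 Kupffer cell markers, Cd68, rose. The part of these markers in the values of the 10 genes was not tested either.

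In DKO against control livers 18 of the 24 other pericentral genes fell and 3 rose, and 17 of the 27 periportal genes fell and 3 rose, against 17.1% and 19.3% of all genes. Of 12 endothelial markers 7 fell there, all 8 stellate cell markers fell, 6 of 10 hepatocyte and 1 of 5 cholangiocyte markers fell, and of 6 Kupffer cell markers 4 fell and 1 rose. The one that rose was Cd68, a lysosomal protein of macrophages, from 8.44 ± 1.497 to 93.6 ± 40.65 CPM (adjusted p = 4.31e-06). The part of these markers in the values of the 10 genes was not tested here or in the other comparisons of DKO livers. In Tsc1L-/- against control livers 7 pericentral genes fell and 2 rose, whereas 5 periportal genes rose, against 2.48% and 4.16% of all genes. No periportal gene fell in that comparison by edgeR or by DESeq2, while 12 of 27 had an unadjusted p under 0.05 in either direction.

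In DKO against Cpt2L-/- livers, where Glul and Slc1a2 were higher, 3 of the 24 other pericentral genes rose and 1 fell, against 10.9% and 7.4% of all genes, with a median log2 fold change of -0.02. Gstm3, a glutathione transferase, rose from 4.16 ± 1.69 to 16.4 ± 7.49 CPM (adjusted p = 0.00565). Of the periportal genes 8 fell and 1 rose. Of the markers, 4 of 10 hepatocyte, 3 of 12 endothelial, 3 of 6 Kupffer cell and 2 of 8 stellate cell markers fell, and 1 hepatocyte, 1 Kupffer cell and 1 of 5 cholangiocyte markers rose. In DKO against Tsc1L-/- livers 12 pericentral genes fell and 20 periportal genes fell, with 2 periportal genes higher, against 15.2% falling and 16.9% rising over all genes. There 5 of 10 hepatocyte markers fell, with a median of -1.09, as did 2 of 12 endothelial, 2 of 8 stellate cell, 3 of 6 Kupffer cell and 1 of 5 cholangiocyte markers, and 1 Kupffer cell marker rose. Sds, the serine dehydratase of gluconeogenesis, fell from 181 ± 75.7 to 6.74 ± 3.17 CPM (adjusted p = 0.000207), and Hal, which degrades histidine, fell from 621 ± 360 to 68.3 ± 22.5 CPM (adjusted p = 0.000579). Aldh1b1, a mitochondrial aldehyde dehydrogenase, fell from 131 ± 67.8 to 10.6 ± 4.01 CPM (adjusted p = 0.000174). Of the pericentral genes, Cyp2c37, a cytochrome P450, fell from 688 ± 332 to 47.5 ± 48.4 CPM (adjusted p = 0.00102), with 1 DKO library at 120.1 CPM and the other 3 at 22.2 to 24.7 CPM.

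**Figure D5:**
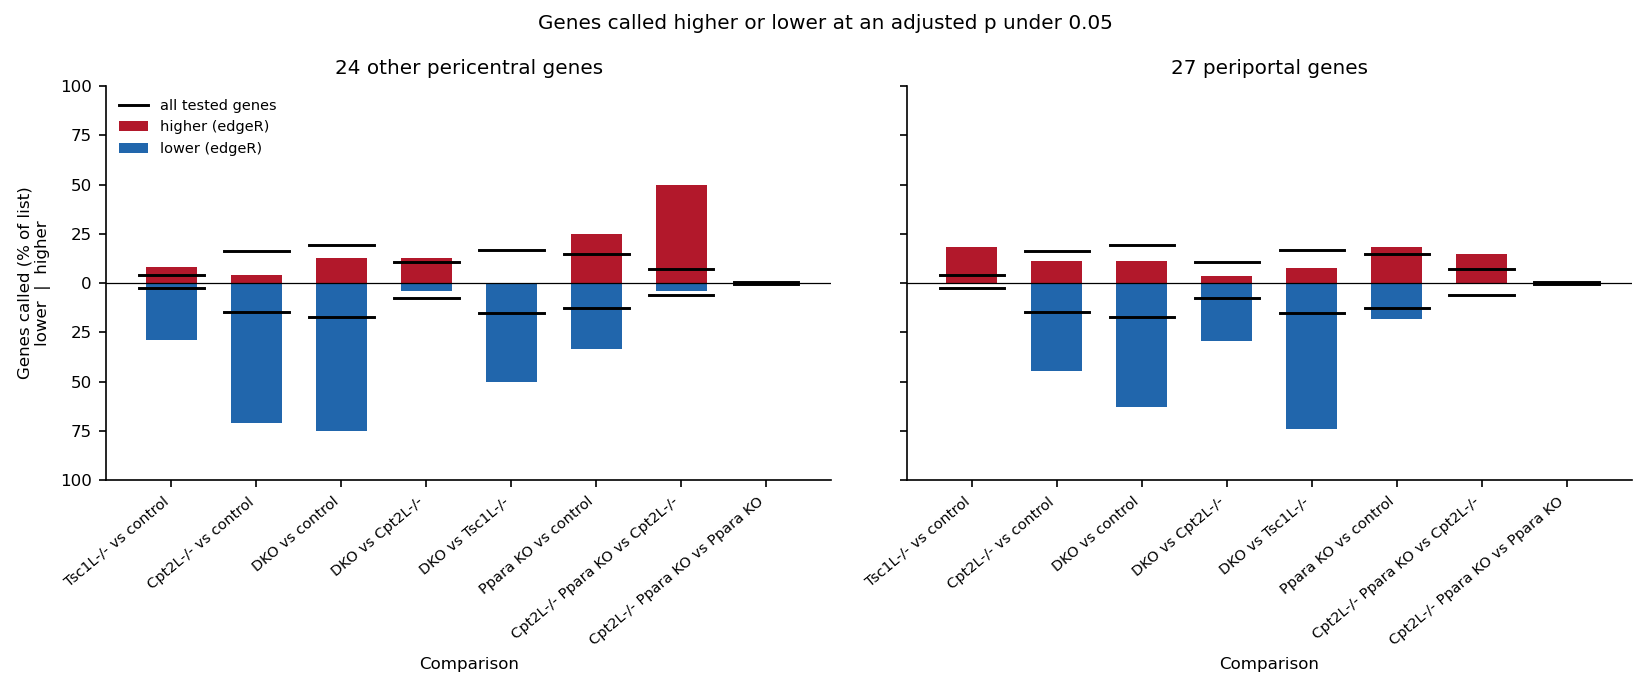
Share of 24 other pericentral genes and of 27 periportal genes called higher (up) or lower (down) by edgeR at an adjusted p under 0.05, in percent of the list, for each comparison of 2 genotypes; black lines mark the same shares over all tested genes. Pericentral genes are mostly lower in Cpt2L-/- and DKO livers against control, and 12 of them are higher in Cpt2L-/- Ppara KO than in Cpt2L-/- livers.

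The groups without Ppara were compared in the same way. In Ppara KO against control livers 6 of the 24 other pericentral genes rose and 8 fell, and 5 of 27 periportal genes rose and 5 fell, against 14.8% and 12.7% of all genes. There 2 of 10 hepatocyte markers rose and 2 of 8 stellate cell markers fell. Of 12 endothelial and of 6 Kupffer cell markers 1 rose and 1 fell each. Of 4 measured lymphoid and erythroid markers 1 fell, with a summed level of 316 to 1663 CPM against 241.5 to 624 CPM. The part of these markers was not tested. Cyp2c29, the gene most like Cyp1a2, rose from 201.5 ± 52.6 to 1177 ± 166 CPM (adjusted p = 0.000116). In Cpt2L-/- Ppara KO against Cpt2L-/- livers 12 of the 24 other pericentral genes rose and 1 fell, against 6.88% and 6.1% of all genes, with a median of 1.18. Of the periportal genes 4 rose and none fell by edgeR, with 12 at an unadjusted p under 0.05 and a median of 0.51, while by DESeq2 8 rose and 1 fell. In the same comparison 3 of 10 hepatocyte markers rose, and 3 of 5 measured lymphoid and erythroid markers rose, with a summed level of 350 to 871 CPM against 115 to 316.5 CPM. Their part in the values of the 10 genes was not tested. Gstm3 rose from 4.16 ± 1.69 to 228 ± 216 CPM (adjusted p = 0.0011) and Cyp2c29 from 85.0 ± 19.1 to 935 ± 782 CPM (adjusted p = 0.00625). Without replicate 1 of Cpt2L-/- Ppara KO the adjusted p was 0.000645 for Gstm3 and 2.57e-05 for Cyp2c29. Cyp7a1 did not pass there, at 5.17 to 50.2 CPM without Ppara. In all, 26 genes of the 7 lists and 1679 of all genes passed in this comparison, and 46 and 2364 passed without replicate 1 of Cpt2L-/- Ppara KO.

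In Cpt2L-/- Ppara KO against Ppara KO livers, edgeR called 0.462% of all genes higher and 0.407% lower. None of the pericentral genes was among them, 3 had an unadjusted p under 0.05, and DESeq2 called 2. Mfsd2a, a periportal transporter of lysophospholipids, fell from 194 ± 41.5 to 15.6 ± 8.93 CPM in Ppara KO against control livers (adjusted p = 0.00086). The difference of effects between backgrounds was called higher for 2 pericentral genes for Tsc1 loss, against 1.09% higher and 1.28% lower over all genes. For Ppara loss it was called higher for 10 of 24, against 12% higher and 12% lower.

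Wnt ligands, receptors and secreted modulators were tested next. In Cpt2L-/- against control livers 5 of 20 measured genes fell and 2 rose, where 14.9% of all tested genes fell and 16.2% rose. Wnt5a fell from 3.23 ± 0.835 to 1.03 ± 0.240 CPM (adjusted p = 0.00101), and Lgr4, the R-spondin receptor that resembles Lgr5, fell from 70.3 ± 6.98 to 34.2 ± 5.88 CPM (adjusted p = 3.08e-05). Lgr4 was also lower in DKO than in Tsc1L-/- livers, at 28.7 ± 2.67 against 76.9 ± 14.9 CPM (adjusted p = 2.13e-06). Wnt4, a ligand, rose in DKO livers to 20.1 ± 6.81 CPM from 2.10 ± 0.813 CPM in control (adjusted p = 1.26e-05). Sfrp1, a secreted Wnt antagonist, fell there from 3.10 ± 2.96 to 0.262 ± 0.124 CPM (adjusted p = 0.000987). Fzd8, a Wnt receptor, fell in DKO against Tsc1L-/- livers from 21 ± 9.47 to 6.05 ± 2.61 CPM (adjusted p = 0.00144).

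The ligands of the central vein itself were looked at for their role, outside the rule for named genes. Rspo3 was at 5.63 ± 1.86 CPM in control, 6.02 ± 0.761 CPM in Cpt2L-/- and 5.28 ± 1.30 CPM in DKO livers, and did not pass the test in either comparison with control (adjusted p = 0.865 and 0.769). Wnt2 fell from 6.08 ± 1.23 CPM in control to 3.17 ± 0.689 CPM in DKO livers (adjusted p = 0.0171), where 7 of 12 endothelial markers also fell. It stood at 5.15 ± 2.38 CPM in Cpt2L-/- (adjusted p = 0.533) and 3.93 ± 0.938 CPM in Tsc1L-/- livers (adjusted p = 0.221). Wnt9b fell from 3.67 ± 1.06 CPM in control to 1.48 ± 0.387 CPM in Tsc1L-/- livers (adjusted p = 0.0214), and stood at 2.90 ± 1.17 CPM in Cpt2L-/- (adjusted p = 0.402) and 2.41 ± 0.747 CPM in DKO livers (adjusted p = 0.132). Ctnnb1, which encodes β-catenin, stood at 208 ± 7.18 CPM in control livers and at 208 ± 4.48 CPM in Cpt2L-/- livers, a log2 difference of -0.03 ± 0.1 (adjusted p = 0.861).

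Among 19 measured genes of the β-catenin destruction complex and its partners, 8 rose and 1 fell in Cpt2L-/- against control livers, where 16.2% of all genes rose and 14.9% fell. In Ppara KO against control livers 5 rose and 1 fell, against 14.8% and 12.7% of all genes. Tnks, a tankyrase that marks Axin proteins for degradation, rose there from 19.9 ± 2.35 to 50.1 ± 12.4 CPM (adjusted p = 0.00153). Gsk3b, the kinase that marks β-catenin for degradation, rose from 53.4 ± 2.71 to 114 ± 21.6 CPM (adjusted p = 0.00124). Btrc, the ligase subunit that recognizes marked β-catenin, fell from 20.8 ± 2.06 to 11.9 ± 3.85 CPM (adjusted p = 0.0252), a call that was lost in 5 of the fits that left out 1 library. Gsk3a rose in DKO against Tsc1L-/- livers from 40.6 ± 3.05 to 68.8 ± 9.12 CPM (adjusted p = 6.95e-05) and Amer1, a membrane partner of the complex, fell from 8.21 ± 0.784 to 4.24 ± 1.01 CPM (adjusted p = 0.000975).

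Of 11 measured Wnt feedback and target genes, 2 rose and 3 fell in Cpt2L-/- against control livers, against 16.2% and 14.9% of all genes. Myc, a growth regulator, rose from 7.04 ± 1.61 to 30.6 ± 10.8 CPM (adjusted p = 0.000304), and Tnfrsf19 fell from 6.71 ± 3.02 to 1.81 ± 0.669 CPM (adjusted p = 0.00101). Notum, an enzyme that inactivates Wnt ligands and is expressed next to the central vein, was lower in DKO than in control livers, at 7.89 ± 1.74 against 23.2 ± 5.28 CPM (adjusted p = 0.000365). Zfp703 was lower in Cpt2L-/- Ppara KO than in Cpt2L-/- livers, at 5.95 ± 2.21 against 22.1 ± 5.28 CPM (adjusted p = 0.00464). Sox9 was lower in Cpt2L-/- Ppara KO than in Ppara KO livers, at 1.93 ± 0.527 against 16.1 ± 10.97 CPM (adjusted p = 0.0307), and this call was lost in 5 of the fits that left out 1 library.

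Genes that make, use or carry glutamine and its neighbours were compared with Glul, Slc1a2 and Oat. In Cpt2L-/- against control livers 5 of 21 measured genes fell and 4 rose, against 14.9% and 16.2% of all genes, which is near that background. Gls2, the liver glutaminase of periportal cells, was at 237 ± 100.9 CPM in control, 142 ± 24.8 CPM in Cpt2L-/-, 448 ± 114 CPM in Tsc1L-/- and 49.9 ± 9.37 CPM in DKO livers. Its fall from Tsc1L-/- to DKO livers had an adjusted p of 1.43e-06, and in DKO against Cpt2L-/- livers, where Glul was higher, it fell too (adjusted p = 0.00164). Asns, which makes asparagine with glutamine as nitrogen donor, rose in Tsc1L-/- against control livers from 4.81 ± 2.95 to 50.4 ± 43.1 CPM (adjusted p = 0.0122). Got1, an aspartate aminotransferase, fell in DKO against Tsc1L-/- livers from 862 ± 513 to 175.5 ± 72.2 CPM (adjusted p = 0.00555). Slc1a4, a neutral amino acid transporter related to Slc1a2, fell in DKO against Cpt2L-/- livers from 11.9 ± 6.09 to 2.88 ± 0.184 CPM (adjusted p = 0.00131), opposite to Slc1a2. Rhbg, the ammonium transporter of pericentral cells, fell in DKO against control livers from 13.5 ± 4.49 to 3.44 ± 0.682 CPM (adjusted p = 4.6e-05) and did not share the higher level of Glul in DKO over Cpt2L-/- livers.

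The aryl hydrocarbon receptor pathway was examined beside Cyp1a2. Of 8 measured genes, 2 rose and 2 fell in Ppara KO against control livers, against 14.8% and 12.7% of all genes. Tiparp, a target and inhibitor of the receptor, rose from 4.53 ± 0.254 to 15.6 ± 10.3 CPM (adjusted p = 0.0164). Ugt1a6a, another target, fell from 10.7 ± 1.85 to 4.89 ± 1.68 CPM (adjusted p = 0.0116). Ahr itself fell in Cpt2L-/- against control livers from 76.1 ± 22.5 to 27.9 ± 7.72 CPM (adjusted p = 0.00329). Nqo1, a further target, rose in Cpt2L-/- Ppara KO against Cpt2L-/- livers from 11.3 ± 1.75 to 24.3 ± 4.89 CPM (adjusted p = 0.007, or 0.00137 without replicate 1 of Cpt2L-/- Ppara KO).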

How the data were processed

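RNA was sequenced from 24 fasted livers with a stranded mRNA kit and single reads of 75 bases. The authors deposited whole-number read counts per gene and FPKM values, the latter being counts per gene length and library total. The submitters' processing notes list STAR 2.5, HTSeq 0.6.1, TopHat, Bowtie 0.12.2, DESeq2, edgeR, mm8 and mm9, without their roles, while the gene coordinates in the table were those of GRCm38. FPKM served only to compare levels between genes.

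The 10 genes and all lists were chosen with earlier results of these data known. Counts were analysed in R 4.3.3 with edgeR 4.0.16 (TMM factors, filter at a minimum count of 10, robust quasi-likelihood test, Benjamini-Hochberg adjusted p under 0.05). Control, Tsc1L-/-, Cpt2L-/- and DKO livers shared 1 fit, and each comparison with a Ppara KO group was fitted on its own 8 libraries, except the difference of effects of Ppara loss, fitted on 16. From each of 7 lists up to 5 genes were named, those with the largest log2 fold change past the threshold whose mean reached 1 CPM in either group. The 3 genes most like each of the 10 were also named. Some genes that this rule names are not reported here. Correlations used log2 CPM with a prior count of 2. Groups were said not to overlap when every library of one lay above every library of the other. DESeq2 1.42.0, other size factors, no filter, 1 fit over all 24 libraries, a replicate block and the omission of each library were tried as alternatives. The fit was tested on simulated data: for Tsc1L-/- against control, 72% of changes of 1 and 96% of changes of 2 on the log2 scale were recovered among 13430 genes. For Ppara KO against control, 31% and 91% were recovered among 12756 genes. For the difference of effects of Tsc1 loss, 36% and 88% were recovered among 13423 genes. Changes were placed only in genes above a minimum mean count, so these rates do not cover low genes. No libraries were duplicates. Promoter windows came from RefSeq, and those of Lgr5, Tbx3 and Rgn were not analysed here. Read counts limit the precision of the lowest values, such as those of Lgr5 in DKO livers.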

Additional observations from a re-analysis of the deposited data

Results flagged for a closer look

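In 4 of 128 groups of 4 libraries examined, 1 library lay far from the others, where chance gives about 1 in 20. Lgr5 was at 6.06 CPM in replicate 4 of Cpt2L-/- Ppara KO and at 2.32 to 2.75 CPM in the other 3. Fzd8 was at 9.93 CPM in replicate 1 of DKO and at 4.31 to 5.09 CPM in the others. Btrc was at 23.9 CPM in replicate 4 of control and at 19.6 to 20.1 CPM in the others. Cyp2c37 was at 120.1 CPM in replicate 4 of DKO and at 22.2 to 24.7 CPM in the others.

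Among the 10 genes, the following went opposite ways in 2 backgrounds in every library, set against the mean of the group it was compared with, and these differences were not tested because the genes were chosen with results known. For Glul the log2 effect of Tsc1 loss was 2.02 higher without Cpt2 than with it. For Slc1a2 that difference was 2.83, but 1 of the 4 Tsc1L-/- libraries lay above the control mean. The log2 effect of Ppara loss was higher without Cpt2 than with it by 1.97 for Glul, 2.503 for Oat, 2.66 for Slc1a2, 2.74 for Lgr5 and 2.58 for Lect2. For Glul, replicate 1 of Cpt2L-/- Ppara KO, at 294.5 CPM, barely exceeded the Cpt2L-/- mean of 291.6 CPM. Ppara KO livers overlapped with control livers for Glul, Oat, Slc1a2 and Lect2, and Tsc1L-/- livers overlapped with control livers for Glul.

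For other list genes the difference of effects was tested with edgeR's quasi-likelihood test (adjusted p over all genes). For Tsc1 loss it was 1.85 for Wnt5a (adjusted p = 0.0484), -1.54 for Zfp703 (adjusted p = 0.00474) and -2.41 for Gls2 (adjusted p = 0.00323). For Ppara loss it was positive for Cyp7a1 (5.37, adjusted p = 0.00169), Cyp2c54 (2.27, adjusted p = 0.00125), Tnfrsf19 (1.53, adjusted p = 0.0453), Ahr (1.36, adjusted p = 0.0267) and Btrc (0.88, adjusted p = 0.0299). It was negative for Myc (-2.48, adjusted p = 0.00155), Sox9 (-2.40, adjusted p = 0.0138), Zfp703 (-2.18, adjusted p = 0.00134), Slc1a4 (-1.98, adjusted p = 0.00765), Tnks (-1.69, adjusted p = 0.00239), Gsk3b (-1.34, adjusted p = 0.00351) and Gsk3a (-0.90, adjusted p = 0.0115).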

How the results depend on the processing

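Of 1460 alternative fold changes of the 10 genes, 1458 moved by less than the spread between replicates, and the 2 exceptions were the differences of effects of Tsc1 loss for Cyp1a2 (0.33) and Rgn (1.21) without replicate 3 of Tsc1L-/-. Leaving 1 of 4 libraries out of a group can hardly move a fold change by more than that spread. The count of 1458 therefore says little about stability. The changes of sign for Cyp1a2 and Rgn in Tsc1L-/- against control without replicate 3 stayed within that spread. All 60 alternative levels moved by less than that spread. Of 442 alternative values for list genes, 432 kept direction and call, and 10 lost the call, 5 each for Btrc (adjusted p 0.0515 to 0.0787) and Sox9 (adjusted p 0.0618 to 0.107), all by edgeR without 1 library.

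Counts of called genes moved more, and the cause was not tested. With DESeq2 the list genes called were 33 instead of 19 for Tsc1L-/- against control, and the difference of effects of Tsc1 loss gave 754 genes and 22 list genes instead of 324 and 11. DESeq2 called 2862 genes instead of 1679 in Cpt2L-/- Ppara KO against Cpt2L-/- livers. It called 2009 and 18 list genes instead of 111 and 1 in Cpt2L-/- Ppara KO against Ppara KO livers. With 1 fit over 24 libraries the counts were 400 and 12 for Tsc1L-/- against control (906 and 19), 2798 for Cpt2L-/- against control (4235), 1065 and 11 for DKO against Cpt2L-/- (2494 and 26) and 65 and 4 for the difference of effects of Tsc1 loss. That fit gave 3239 for Cpt2L-/- Ppara KO against Cpt2L-/- and 4311 and 30 for it against Ppara KO livers. Without a filter this last comparison gave 368 and 3.

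Replicate numbers did not pair the samples: in no comparison did every same-numbered pair correlate above 0.1. With a replicate block Cpt2L-/- Ppara KO against Ppara KO gave 916 genes and 15 list genes, and the other counts stayed within 1.5 times.

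With 1 library left out, Tsc1L-/- against control gave 583 (without control replicate 3) to 967 genes. The difference of effects of Tsc1 loss gave 150 (without DKO replicate 2) to 403 genes and 5 to 13 list genes. DKO against Cpt2L-/- gave 1428 (without DKO replicate 2) to 2498 genes and 15 to 28 list genes. Ppara KO against control gave 2321 to 4177 genes, the latter without Ppara KO replicate 1. Cpt2L-/- Ppara KO against Cpt2L-/- gave 625 (without Cpt2L-/- replicate 3) to 2541 genes and 14 to 46 list genes. Cpt2L-/- Ppara KO against Ppara KO gave 2 (without Ppara KO replicate 3) to 725 genes and 0 to 8 list genes.

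As an alternative chosen after seeing the data, the first replicates of the Ppara groups were left out. Of the 10 genes, those without overlap became 6 for Ppara KO against control. For Cpt2L-/- Ppara KO against Ppara KO they were 0 to 1 with either left out and 1 with both left out.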
